A study of Rattus norvegicus with 6 samples.

Results

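The genes described here mark tendon cells, the cells that line the joint and the fibroblasts of connective tissue: Prg4, Thbs4, Tnmd, Scx, Mkx, Thy1, Pdgfra, Pi16 and Postn. They were given as a set of 9 gene names. No measured value was a rule of the choice, but earlier results of these data were known when it was made. The names were matched in the deposited table, where each had 1 row among 22050 annotated rat genes. The tissue was rat subchondral bone, the bone plate beneath the cartilage of the knee joint, measured by RNA-seq in 6 libraries whose titles are S10, S12, S13 and S20 as well as S21 and S23. The study set rats kept at low temperature beside rats kept at normal temperature to look for molecules shared by cold and arthritis. The labels give the tissue and the cell type (subchondral bone cells) for all 6 libraries, and tie none of them to a temperature, so the libraries form no groups and no cold effect was tested. The sources used here do not give strain, sex, age or treatment of the animals, nor whether each library came from a separate animal. Total counts ran from 39990624 in S10 to 59200981 in S21.

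Tendon, synovium and loose connective tissue are all built by fibroblasts, which differ in the matrix they lay down. Tendon cells are specified by the transcription factors scleraxis (Scx) and Mohawk (Mkx) and carry tenomodulin (Tnmd) when mature. Synovial lining cells secrete lubricin (Prg4), the glycoprotein that keeps joint surfaces sliding, and so do chondrocytes of the cartilage surface. Stromal fibroblasts beneath the lining and around vessels carry the surface protein CD90 (Thy1) and the platelet-derived growth factor receptor alpha (Pdgfra), and periosteal cells deposit periostin (Postn).

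The 9 genes fell into a well detected set and a set near the lower limit. Thy1, Prg4, Thbs4, Pi16, Postn and Pdgfra reached a median of 1 FPKM (fragments per kilobase of transcript, adjusted for library size), 6 of 9 genes against 52.7% of all annotated genes. Scx, Mkx and Tnmd, the genes that define tendon cells, stayed at or under 0.567 FPKM in all 6 libraries. In bulk RNA, fewer cells of a type and less RNA per cell cannot be told apart.

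Ordered by median FPKM, which compares genes per length, Thy1 came first at 42.1, followed by Prg4 at 9.17, Thbs4 at 5.68, Pi16 at 4.02, Postn at 3.20 and Pdgfra at 2.27. Scx followed at 0.307, Mkx at 0.207 and Tnmd at 0.206. Thy1 exceeded Prg4 in 6 of 6 libraries with ranges that did not overlap, and so did Pdgfra over Scx. The other neighbours in this order had overlapping ranges: Prg4 exceeded Thbs4 in 5 of 6 libraries, Thbs4 exceeded Pi16 in 4, Pi16 exceeded Postn in 3, Postn exceeded Pdgfra in 5, Scx exceeded Mkx in 4 and Mkx exceeded Tnmd in 5. Thy1 alone made up from 40.7% (S23) to 69.2% (S20) of the FPKM summed over the 9 genes. Without Thy1, the sum ran from 18.5 FPKM in S10 to 47.2 FPKM in S23.

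**Figure D1:**
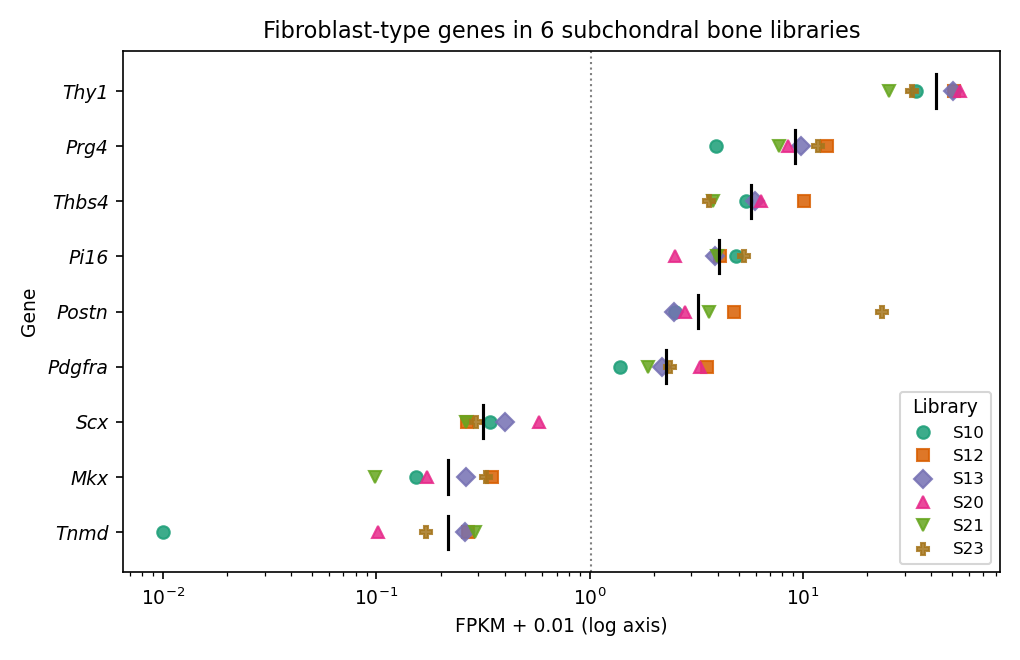
FPKM of the 9 genes in the 6 libraries on a log axis, with 0.01 added so that the Tnmd value of 0 in S10 can be drawn; symbols are libraries, black bars medians, and the dotted line 1 FPKM. Thy1 lies above all other genes, Scx, Mkx and Tnmd lie below 1 FPKM, and Postn has 1 library (S23) at 23.5 FPKM with the other 5 at 2.47 to 4.76 FPKM.

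Of the transcription factors, Scx (ENSRNOG00000021812) encodes a basic helix-loop-helix protein of tendon progenitors. It had 29 counts in S20, 27 in S13, 19 in S21, 17 each in S10 and S23 and 14 in S12. As CPM (counts scaled to the library total), the exact 95% Poisson interval of its highest library, S20 (0.477 to 1.02 CPM), overlapped that of its lowest, S12 (0.173 to 0.532 CPM). All such intervals cover counting error only. In the GRCr8 annotation Scx lies inside the gene Bop1, a ribosome biogenesis factor that had 12.3 to 18.9 FPKM here. The Scx counts were 0.627% to 1.58% of the Bop1 counts. The sources used here do not say whether counting used strand, so the reads of the pair cannot be told apart with certainty and the Scx level is uncertain.

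Mkx (ENSRNOG00000018938), the homeobox factor that in mice maintains tendon matrix genes, had 22 counts each in S12 and S23, 20 in S13, 10 in S20, 9 in S10 and 8 in S21. The intervals of S12 (0.312 to 0.754 CPM) and S21 (0.0583 to 0.266 CPM) did not overlap. Of the 13 genes in the list of tendon regulators, which includes Scx and Mkx, 5 reached a median of 1 FPKM, against 52.7% of all annotated genes. Gdf7 had 0 FPKM in all 6 libraries. Egr1, an early-response factor that is active in many cell types, was the highest of the list, with 20.1 FPKM in S12 and 5.65 to 8.97 FPKM in the rest. The ligands Tgfb2 and Tgfb3, which recruit tendon progenitors in the mouse embryo, had 0.824 to 1.72 and 1.11 to 2.24 FPKM.

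Tnmd (ENSRNOG00000060970), a membrane glycoprotein of mature tendon cells, had 25 counts in S21, 20 in S13, 17 in S12, 12 in S23, 6 in S20 and 0 in S10. The 0 in S10 was given an upper limit of 3 counts, which is 0.0750 CPM. This limit was set for counts of 0 and is lower than the exact 95% Poisson limit used for other counts. Set against that limit, the measured CPM was 1.96-fold higher in S20, 3.46-fold higher in S23 and 5.63-fold higher in S21. The lower 95% bound in S20, 0.0541 CPM, lay under the limit, while those of the other 4 libraries, from 0.134 to 0.273 CPM, lay above it. Its relative Cnmd, which encodes chondromodulin of cartilage, had 16.4 to 24.8 FPKM. Kera, a proteoglycan gene of tendon and cornea, stayed at or under 0.140 FPKM. The abundant genes of the tendon matrix list were those that cartilage and bone also use: Lum, Dcn, Comp and Fmod ran at 63.9 to 97.0, 25.3 to 55.6, 23.8 to 41.3 and 8.50 to 12.6 FPKM.

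Thbs4 (ENSRNOG00000012471) encodes thrombospondin 4, a pentameric glycoprotein of the matrix of tendon and muscle. It had 10.1 FPKM in S12, 6.34 in S20, 5.93 in S13, 5.42 in S10, 3.79 in S21 and 3.62 in S23. S12 stood highest, 1.59-fold above the next library, and S21 and S23 were lowest. Its range, the highest minus the lowest value of log2(FPKM + 1), was 1.26. A range of 1 or more was called wide, which held for 36.6% of the 11625 annotated genes that reached a median of 1 FPKM (the tested genes). Without S12, the range of Thbs4 was 0.67.

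Skeletal muscle markers were also highest in S12. All 5 muscle markers above a median of 1 FPKM peaked there, against 26.6% of the tested genes, and the summed level of the 8 markers found was 131 FPKM in S12 and 12.9 to 51.8 FPKM in the other libraries, with Mb at 0 in S23 and Myh7 at 0 in all libraries but S12. Adipocyte markers summed to 853 FPKM in S12 and 294 to 690 FPKM in the others, with Lep at 0 in S21 and S23. S12 had the highest sum for 11 of the 19 marker and pathway lists, among them chondrocyte, osteoblast, endothelial, T cell and Schwann cell markers. The endothelial sums of S12 and S20 were nearly level, at 50.27 and 50.21 FPKM. All list sums use the deposited values. After scaling the libraries by TMM factors, S12 was the highest library for 15.2% of the tested genes. Outside S12 the orders of Thbs4 and muscle differed: S20 had the second highest Thbs4 value and the lowest muscle sum. The part of muscle, fat or any of these cells in the Thbs4 level was not tested. Among the thrombospondins, Thbs1 varied more, with 3.61 FPKM in S10 and 35.2 FPKM in S20, while Thbs2 and Thbs3 had 0.906 to 2.91 and 0.443 to 1.11 FPKM.

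Prg4 (ENSRNOG00000002385), the lubricin gene, had 13.01 FPKM in S12, 11.7 in S23, 9.81 in S13, 8.53 in S20 and 7.72 in S21, but 3.91 in S10. S10 was lowest and the other 5 libraries lay within 1.69-fold of each other. The range was 1.51, and 0.68 without S10. S10 was the lowest library for 60.1% of the tested genes, whose median deviation there was -0.31 on the log2(FPKM + 1) scale. Prg4 deviated by -1.05 in S10. With TMM factors, which bring the median deviation of S10 to 0.01, Prg4 had 5.23 FPKM in S10 and 7.56 to 11.3 FPKM in the other libraries, with a range of 0.99.

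In the synovial lining list, the 4 genes above a median of 1 FPKM (Prg4, Cd55, Htra1 and Tspan15) were all lowest in S10, as were most tested genes. Cd55, a complement regulator, had 9.995 to 22.7 FPKM and Htra1, a secreted protease, 10.1 to 21.3 FPKM. The hyaluronan synthases Has1 and Has2 had medians under 1 FPKM. Chondrocyte markers, which bear on Prg4 because surface chondrocytes make it too, summed to 155 FPKM in S10 and to between 164 and 299 FPKM elsewhere. All 10 chondrocyte markers were detected and 9 passed a median of 1 FPKM. They split by gene: 4 were lowest in S10, 4 in S13 and 1 in S20, against 60.1%, 4.09% and 17.1% of the tested genes. Col2a1, the largest of them, had 59.1 FPKM in S10 and 77.1 to 152 FPKM elsewhere. The part of chondrocytes in the Prg4 level was not tested. In the GRCr8 annotation Prg4 also overlaps Tpr, a nuclear pore gene with 10.6 to 30.6 FPKM, so some of its reads could be shared.

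Thy1 (ENSRNOG00000006604), whose product CD90 marks fibroblasts and mesenchymal stromal cells, had 54.4 FPKM in S20, 51.0 in S12, 50.3 in S13, 33.8 in S10, 32.4 in S23 and 25.4 in S21. As deposited, S12, S13 and S20 lay at 50.3 FPKM or above and S10, S21 and S23 at 33.8 FPKM or below. This split depended on scaling. With TMM factors Thy1 was highest in S13 at 52.1 FPKM, with 48.2 in S20, 45.3 in S10 and 44.5 in S12. S23 and S21 then had 29.5 and 26.1 FPKM. The range was 1.07, just inside the limit for a wide one, and Pdgfra, at 0.94, was just outside. In the rat CD90 is also carried by thymocytes and by immature lymphoid cells of the marrow. Markers of B cell precursors summed to 207 FPKM in S20, the library with the most Thy1 as deposited. They summed to 58.2 FPKM in S21, the library with the least. All 7 of the markers found were above a median of 1 FPKM, and they split by gene. Of these, 4 (Dntt, Vpreb1, Igll1 and Rag1) were highest in S20 and lowest in S21, against 28.8% and 4.77% of the tested genes. Dntt, the DNA polymerase of early lymphoid cells, had 51.9 FPKM in S20 and 6.58 FPKM in S21. The other 3 (Cd79b, Pax5 and Rag2) were highest in S12 and lowest in S23, with Cd79b, a subunit of the B cell receptor, at 83.6 FPKM in S12, 36.0 in S20, 26.2 in S21 and 20.3 in S23. T cell markers, 7 of 7 above a median of 1 FPKM, summed to 39.7 to 70.1 FPKM, with the highest sum in S12. Cd4 alone had 31.1 FPKM there. By gene, 3 (Cd4, Cd8a and Lck) were highest in S12, 2 (Cd3e and Cd3d) in S10 and 2 (Cd3g and Cd2) in S13. Those libraries were highest for 26.6%, 11% and 4.1% of the tested genes. The part of lymphoid cells in the Thy1 level was not tested.

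Pdgfra (ENSRNOG00000002244), the receptor tyrosine kinase of mesenchymal precursors, had 3.55 FPKM in S12, 3.29 in S20, 2.37 in S23, 2.18 in S13, 1.87 in S21 and 1.38 in S10. S12 and S20 were highest and S10 lowest. Its relative Pdgfrb, the receptor of pericytes and fibroblasts, was also lowest in S10, at 3.91 FPKM. Its values in S12 and S20 were 8.90 and 8.87 FPKM. Such extremes were common: S10 was the lowest library for 60.1% of the tested genes, and S12 and S20 the highest for 26.6% and 28.8%. The ligand genes were present throughout: Pdgfa had 2.70 to 4.20 FPKM, Pdgfb 2.94 to 5.03 FPKM, Pdgfc 1.81 to 3.58 FPKM and Pdgfd 0.461 to 1.27 FPKM. The Pdgfra range was 0.94 as deposited, 0.53 under TMM scaling and 0.51 with median-ratio factors, with S12 highest and S10 lowest in each. After removing each library's median deviation in 20 length bins, which takes out the overall shift of a library and any length trend together, its range was 0.31 and S10 was its highest library.

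Pi16 (ENSRNOG00000000525), a peptidase inhibitor gene that marks fibroblasts of the vessel adventitia in mice, had 5.26 FPKM in S23, 4.82 in S10, 4.08 in S12, 3.96 in S21, 3.88 in S13 and 2.51 in S20. S20 was lowest, where Thy1 was highest as deposited, and the other 5 libraries lay between 3.88 and 5.26 FPKM. The range was 0.84, and 1.21 under TMM scaling, which put the highest value, 6.45 FPKM, in S10. Other genes of such fibroblasts were measured too. Cd34 had 0.840 to 3.59 FPKM, Dpp4 6.64 to 16.7 FPKM and Mfap5 1.95 to 2.87 FPKM. Clec3b, the gene of the plasminogen-binding protein tetranectin, had 13.03 FPKM in S12 and 2.54 to 6.64 FPKM in the other libraries.

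Of the 15 genes in the stromal fibroblast list, which includes Thy1, Pdgfra and Pi16, 13 were above a median of 1 FPKM, against 52.7% of all annotated genes. Of these 13, 6 had a wide range, against 36.6% of the tested genes. In S12, 8 were highest, against 26.6% of the tested genes. The median range of the list was 0.94, against 0.83 over the tested genes. Cxcl12, the chemokine of marrow stroma, ran at 225 FPKM in S12 but 103 FPKM in S23, whereas Cxcl14 was nearly level at 49.7 to 56.4 FPKM.

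Postn (ENSRNOG00000012660) encodes periostin, a matrix protein of periosteum, ligaments and healing tissue. It had 23.5 FPKM in S23, 4.76 in S12, 3.63 in S21, 2.77 in S20, 2.50 in S10 and 2.47 in S13. S23 stood 4.94-fold above the next library, while the other 5 lay within 1.93-fold of each other. The underlying counts were 3829 in S23 and 344 to 743 in the others. The range of 2.82 was larger than that of 98.7% of the tested genes, and it fell to 0.73 without S23. S23 stayed the highest library under all 5 other scalings, with ranges from 2.68 to 3.09.

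Few genes shared this pattern. Of the 11625 tested genes, 0.138% had S23 at least 1 log2 unit above the second library, and 0.0258%, or 3 genes counting Postn itself, had S23 at least as far above as Postn. These limits were chosen after the values were seen. The 2 others were the serine protease genes Prss29 and Prss34, with 151 and 110 FPKM in S23 and at most 4.31 and 6.83 FPKM elsewhere. Prss34 is a gene of mast cells and basophils.

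The periosteal and partner genes of Postn did not share the peak as a list. Of its 12 genes above a median of 1 FPKM, 2 (Postn and Fn1) were highest in S23, which was the highest library for 24% of the tested genes. Fn1, the fibronectin gene, had 54.5 FPKM in S23 and 53.9 FPKM in S12. Tgfbi, whose product is the closest relative of periostin, had 20.3 FPKM in S23 and 18.8 to 36.6 FPKM in the other libraries. Tnc, Col12a1 and Ogn, genes of matrix proteins of periosteum and tendon, had 6.30, 2.08 and 4.91 FPKM in S23, within their ranges over the other libraries of 4.24 to 10.6, 1.12 to 3.51 and 4.08 to 8.12 FPKM. The integrin subunit gene Itgb3 had 37.8 FPKM in S23 and 10.8 to 65.0 FPKM in the others.

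S23 differed from the other libraries in its cell markers as well. All 6 neutrophil markers above a median of 1 FPKM were highest there, against 24% of the tested genes, the other marker, Ltf, was at or under 0.0301 FPKM with 0 in S12, and the 7 markers summed to 70283 FPKM in S23 against 15174 to 40791 FPKM in the other libraries. Mural markers summed to 31.8 FPKM in S23 and 14.1 to 25.3 FPKM in the others, but that excess lay in Tagln, a smooth muscle gene with 17.8 FPKM in S23. Without Tagln, a gene left out after its values were seen, the mural sum was 14.1 FPKM in S23 and 17.7 FPKM in S20. Of the 4 mural markers above a median of 1 FPKM, 2 (Tagln and Acta2) were highest in S23, against 24% of the tested genes. The other 2, the pericyte genes Rgs5 and Notch3, were highest in S20, against 28.8%. Acta2 had 4.15 FPKM in S23 and 4.10 FPKM in S13. Osteoblast markers, whose cells can also make periostin, had their lowest sum in S23, at 1675 FPKM against 1768 to 2284 FPKM, and this rested on Bglap, the osteocalcin gene, with 255 FPKM in S23. Of the 8 osteoblast markers, 5 were lowest in S10 and 1 (Bglap) in S23, and Alpl was highest in S23 at 64.7 FPKM. Without Bglap, the sum was 1419 FPKM in S23 and lower, at 1220 FPKM, in S21. Muscle and adipocyte sums in S23 were 15.2 and 294 FPKM, the second lowest and the lowest of the libraries. Erythroid markers, which include the globin genes, summed to 159148 FPKM in S23 and to 301669 to 432874 FPKM in the others. Of the 6 erythroid markers above a median of 1 FPKM, 5 were lowest in S23, against 8.37% of the tested genes. The part of these cells in the Postn level was not tested.

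**Figure D2:**
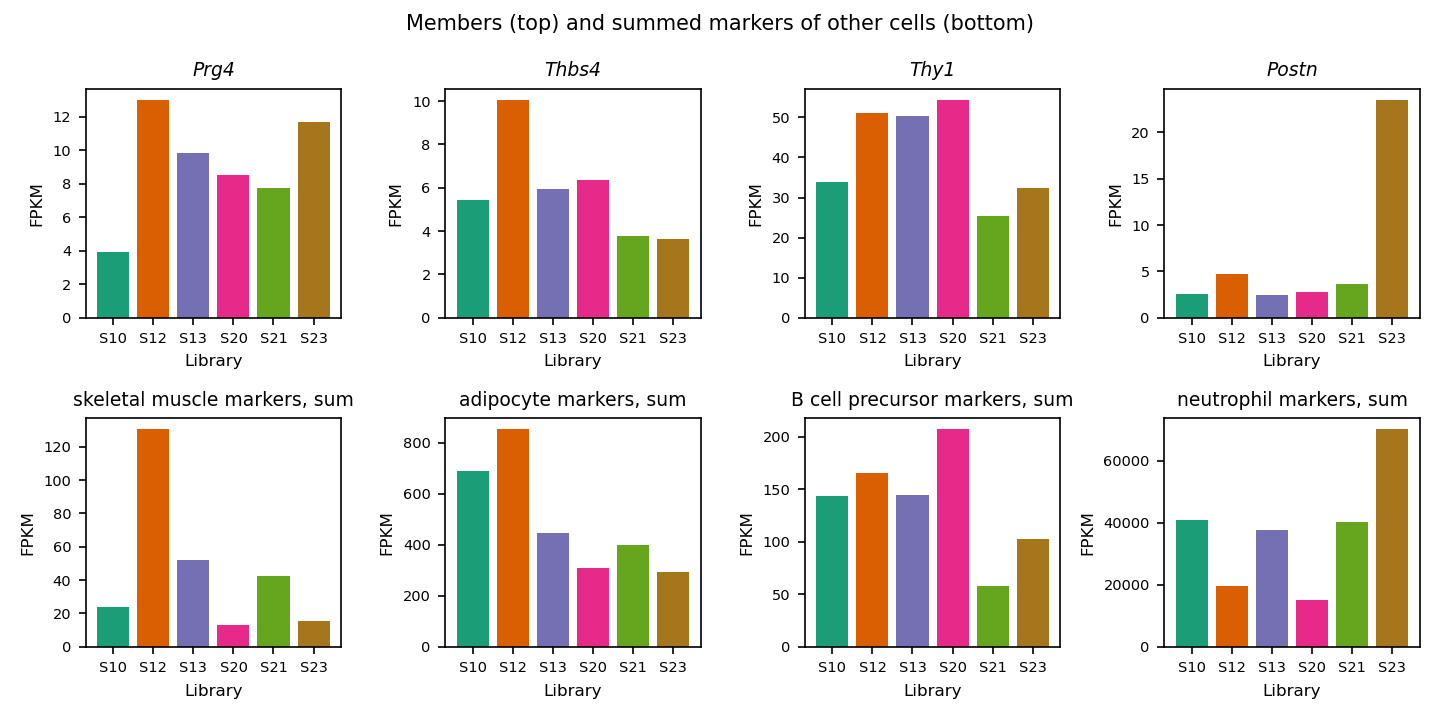
Bars give FPKM of 4 genes (top row: Prg4, Thbs4, Thy1, Postn) and the summed FPKM of 4 marker lists (bottom row: skeletal muscle, adipocyte, B cell precursor, neutrophil) in each of the 6 libraries; each panel has its own axis starting at 0. Thbs4 and the muscle and adipocyte sums peak in S12, Thy1 and the B cell precursor sum in S20, and Postn and the neutrophil sum in S23.

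The promoter sequences of Postn, Prg4 and Thbs4, 3 of the 4 genes with a wide range, are shown so that each can be set beside its pattern. RefSeq windows were matched for 7 of the 9 genes, all but Thy1 and Scx. Each window holds 300 bases, 250 before and 50 after the start, in the build GRCr8. Capitals mark the E-box CANNTG, the 6-base word that basic helix-loop-helix factors such as scleraxis bind, searched on both strands (the pattern is its own reverse complement, and overlapping matches were allowed).
Postn, chr2:140677811-140678110, plus strand, GRCr8: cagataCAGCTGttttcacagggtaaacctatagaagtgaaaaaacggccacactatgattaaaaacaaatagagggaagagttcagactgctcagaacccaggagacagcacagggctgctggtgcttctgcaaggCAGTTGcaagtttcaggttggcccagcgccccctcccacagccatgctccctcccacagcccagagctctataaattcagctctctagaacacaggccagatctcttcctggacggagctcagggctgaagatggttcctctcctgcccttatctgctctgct
Prg4, chr13:65054176-65054475, minus strand, GRCr8: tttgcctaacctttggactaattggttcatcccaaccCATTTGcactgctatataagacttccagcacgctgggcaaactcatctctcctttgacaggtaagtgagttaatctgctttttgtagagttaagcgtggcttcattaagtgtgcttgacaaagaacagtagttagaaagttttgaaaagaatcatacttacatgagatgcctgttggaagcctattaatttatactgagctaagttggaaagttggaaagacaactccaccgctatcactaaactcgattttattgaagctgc
Thbs4, chr2:25760296-25760595, minus strand, GRCr8: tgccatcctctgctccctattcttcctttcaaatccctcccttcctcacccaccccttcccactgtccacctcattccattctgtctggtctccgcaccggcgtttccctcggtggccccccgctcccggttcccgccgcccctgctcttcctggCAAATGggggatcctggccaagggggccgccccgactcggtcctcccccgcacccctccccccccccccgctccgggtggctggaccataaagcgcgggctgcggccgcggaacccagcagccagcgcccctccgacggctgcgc
The Postn window held 2 E-boxes, CAGCTG and CAGTTG, the Prg4 window 1, CATTTG, and the Thbs4 window 1, CAAATG. An E-box was found in 5 of the 7 members' windows and in 72.1% of 33469 promoter windows of the same length, so its presence is common. The word CAGCTG, its own reverse complement and a form of the E-box, was found in the Postn window only among the 7, and in 15.1% of all windows. The TATA word TATAAA, searched on both strands, was found in 2 of the 7 members' windows, beginning at position 207 of the Postn window and, as its reverse complement TTTATA, at position 226 of the Prg4 window, and 14.2% of all windows held it. These matches describe the letters of the windows.

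The 6 well detected genes did not move as a block. Of these, 3 (Prg4, Thbs4 and Pdgfra) were highest in S12, against 26.6% of the tested genes, 2 (Pi16 and Postn) in S23, against 24%, and 1 (Thy1) in S20, against 28.8%. None was highest in S10, S13 or S21, where 11%, 4.1% and 5.45% of the tested genes were. The lowest values of Prg4 and Pdgfra lay in S10, against 60.1% of the tested genes. Those of Pi16, Thbs4, Thy1 and Postn lay in S20, S23, S21 and S13, the lowest libraries for 17.1%, 8.37%, 4.77% and 4.09% of the tested genes, and none lay in S12 (5.52%). A wide range was found for 4 of the 6 (Postn, Prg4, Thbs4 and Thy1), against 36.6% of the tested genes. The median range of all 6 was 1.16, against 0.83 over the tested genes.

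**Figure D3:**
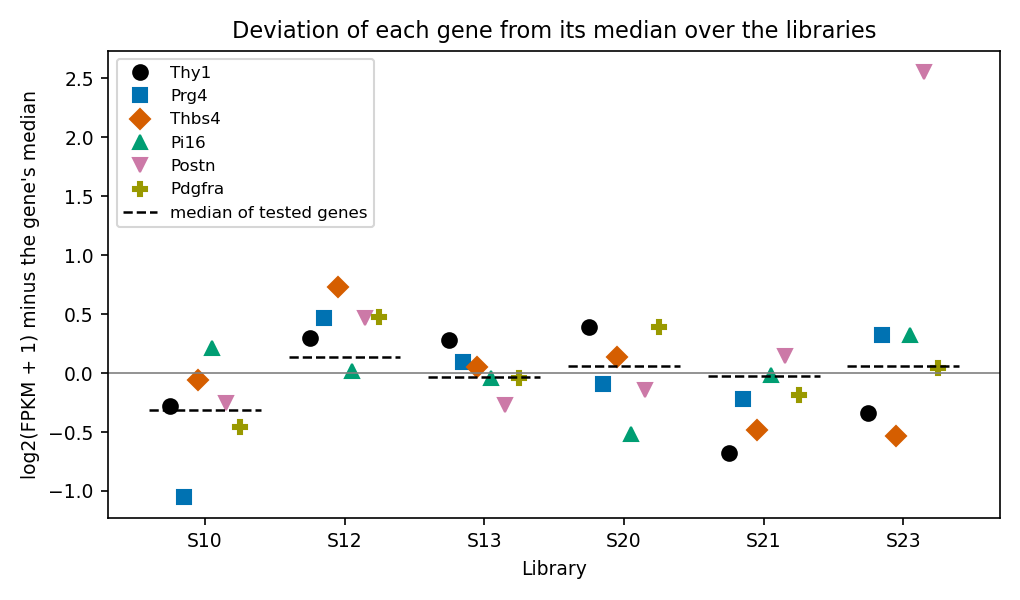
Points give log2(FPKM + 1) of each well detected gene minus its median over the 6 libraries, by library; dashed bars give the median of the same deviation over the 11625 tested genes. S10 lies low for the tested genes as a whole (-0.31), Prg4 lies lower still there (-1.05), and Postn stands at 2.55 in S23.

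**Figure D4:**
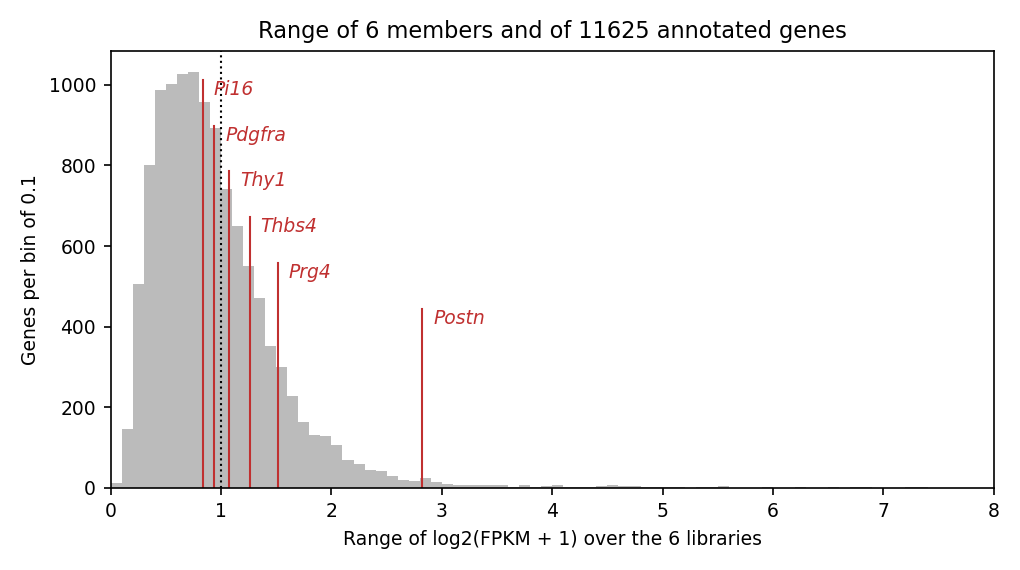
Histogram of the range of log2(FPKM + 1) over the 6 libraries for the 11625 tested genes, with red lines at the 6 well detected genes and a dotted line at 1. Pi16 and Pdgfra lie below 1, Thy1, Thbs4 and Prg4 from 1.07 to 1.51, and Postn at 2.82.

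Scaling decided some of these calls and not others. Postn and Thbs4 had wide ranges in the deposited values and under all 5 other scalings, with 1.06 to 1.51 for Thbs4. Thy1 dropped to 0.97 under TMM and median-ratio factors, and Prg4 to 0.99 under TMM, 0.96 under median-ratio factors and 0.85 after length correction. Pi16 passed with 1.21 under both TMM and median-ratio factors, and Pdgfra passed with 1.14 and 1.07 when the libraries were brought to a common sum with and without the globin genes. Under TMM 3 of the 6 genes had a wide range, against 29.6% of the tested genes.

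**Figure D5:**
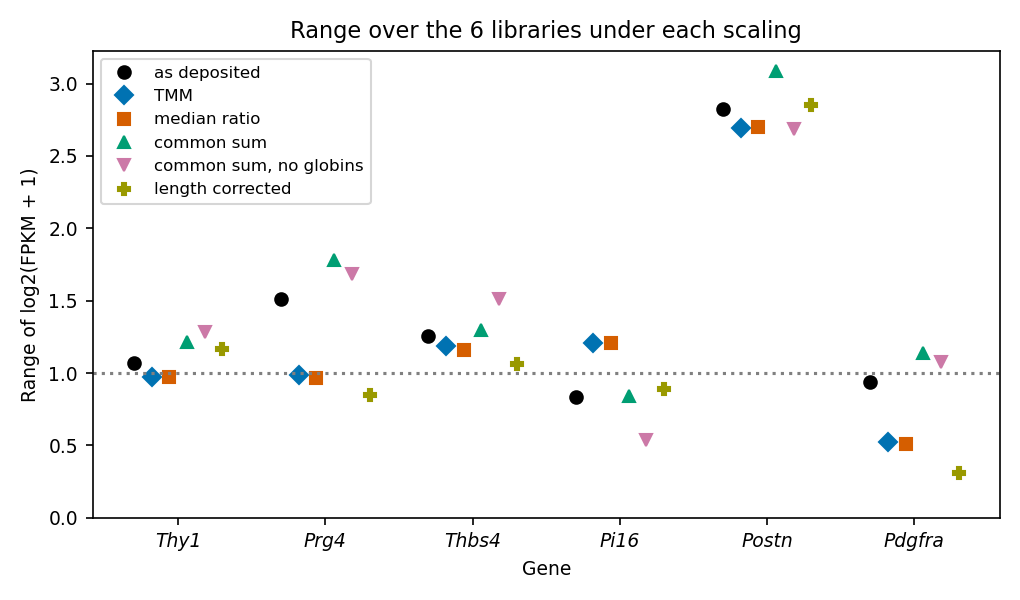
Range of log2(FPKM + 1) over the 6 libraries for the 6 well detected genes, with the values as deposited and under 5 other scalings; the dotted line marks a range of 1. Postn stays between 2.68 and 3.09 and Thbs4 above 1 throughout, while Thy1, Prg4, Pi16 and Pdgfra cross the line.

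The genes whose profile over the 6 libraries was nearest to each wide-range gene were sought among the other 11624 tested genes, by the root mean square difference of log2(FPKM + 1) after removing each gene's median. For Thbs4 the nearest were St3gal6, a sialyltransferase gene (difference 0.05), LOC100910979 (0.07) and Marcksl1 (0.10). For Prg4 they included Adgre5 and Samhd1 (each 0.09), both low in S10. For Thy1 they were Jakmip1 and Plpp7 (each 0.15) and Scara5 (0.17), a scavenger receptor gene that also marks stromal fibroblasts in mice. For Postn they were the neuropeptide gene Gal (0.26) and the chemokine genes Ccl2 (0.40) and Ccl9 (0.45), at 11.5, 6.61 and 8.56 FPKM in S23 and at most 2.23, 1.67 and 1.90 FPKM in the other libraries.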

How the data were processed

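Per the file headers, the deposited table holds a count and an FPKM value for each gene in each of 6 libraries. The counts are whole numbers without normalization as deposited, and the FPKM values were made by the authors, with column sums of 811992 to 1047310. An RNeasy kit (RNA) and a SMARTER mRNA-Seq kit (libraries) were used, per the labels' protocols. The submitters' processing notes name the mouse builds GRCm38 and mm10, but the IDs in the table are of rat Ensembl genes; the sources used here name no aligner or counter, so gene coordinates of the table are not given.

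Of 30610 rows, 10 held no values; 22050 were annotated genes and 8550 other loci, and all value columns were used. The 6 libraries are unassigned, so values are given per library or as range and median, with no test between groups. Intervals of counts are exact Poisson (95%). The 11625 annotated genes that reached a median of 1 FPKM were taken as the background, ranges used a pseudocount of 1, and this scale understates differences of low genes. Marker and pathway lists held 157 genes, of which 150 were matched by name; the members, lists and tests were chosen with earlier results of these data known. Genes named are all members, up to 4 genes per list by median and 2 by range, the 3 nearest genes of each wide-range member (1 of those of Prg4 is not reported here), overlapping genes and markers; others (Kera, Gdf7, Tgfb2, Tgfb3, Has1, Has2, Mb, Myh7, Lep, Thbs3, Mfap5, Tnc, Col12a1, Ogn, Prss29, Prss34 and others of the lists) were added after their values were seen. Scaling factors came from edgeR 4.0.16 (R 4.3.3), other steps from Python 3.11.15 with pandas 2.3.3 and scipy 1.17.1. The range, length and nearest-gene steps were tested on simulated data. Promoters and gene overlaps are from RefSeq tables of GRCr8; all 9 members matched by symbol.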

Additional observations from a re-analysis of the deposited data

How the results depend on the processing

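The alternatives were TMM and median-ratio factors, a common FPKM sum with and without globins, length correction, a pseudocount of 0.1, other FPKM minimums and leaving out each library. The count of members at a median of 1 FPKM (6) held under all of them; that of members with a wide range (4) was 3 under TMM and median-ratio factors (29.6% of the tested genes under each, against 36.6% as deposited), 3 after length correction (19.8%), 5 under the common sums with and without globins (51.3% and 44.5%), 6 with a pseudocount of 0.1 (48.6%), and 3 to 4 when each library was left out (13.5% without S10 to 36.2% without S13). Which library was highest or lowest depended on scaling. With TMM and with median-ratio factors, tested members highest in S10, S13, S20 and S23 numbered 1, 1, 0 and 1 (0, 0, 1 and 2 as deposited), and those lowest in S13 and S20 0 and 2 (1 and 1). After length correction, 2 were highest in S10 and 1 in S12 (0 and 3 as deposited), and 1, 0 and 3 were lowest in S10, S13 and S20 (2, 1 and 1). With a common sum, 0, 2 and 0 were lowest in S13, S21 and S23 (1 each as deposited), and without globins 0 in S13. The share of tested genes highest in S10 moved too, to 35.9% with median-ratio factors against 11% as deposited. The cause was not tested. The range of Thbs4 without S12 (0.67), Prg4 without S10 (0.68), Postn without S23 (0.73) and Thy1 without S20 (0.98) or S21 (0.73) was no longer wide. Of the 3 nearest genes as deposited, 2 remained under TMM for each of Prg4, Thbs4, Thy1 and Postn; with a pseudocount of 0.1, 2, 3, 1 and 2 remained. With a pseudocount of 0.1, Tnmd and Mkx had ranges of 1.92 and 1.21, which rest on at most 25 and 22 counts per library. No paired analysis was possible because the labels give no groups.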

Other observations

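The thrombospondins differed in pattern. Thbs1, which platelets store and many cells secrete, had 35.2 FPKM in S20, 31.5 in S12, 22.0 in S23, 16.4 in S13, 14.6 in S21 and 3.61 in S10. S10 was its lowest library, although megakaryocyte markers had their highest sum there, at 1568 FPKM against 831 to 1336 FPKM in the other libraries. Comp, the cartilage thrombospondin, had 23.8 to 41.3 FPKM and was lowest in S13.

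In S23, Has2, a hyaluronan synthase gene, had 0.870 FPKM against 0.0525 to 0.170 FPKM in the other libraries. Col3a1, a collagen gene of loose connective tissue, had 48.1 FPKM in S23 against 7.59 to 24.6 FPKM, and Timp1, a metalloprotease inhibitor gene, 57.3 FPKM against 18.2 to 24.2 FPKM. These genes were chosen after their values were seen.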
